A study of Homo sapiens with 8 samples.

Results

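The transcripts of 10 immediate early regulators were measured by RNA sequencing in DLD1, a human line from a colorectal tumour, with and without overexpression of TRMT6/61A, the enzyme of paired subunits that places the N1-methyladenosine mark on tRNA. The genes were FOS, FOSL1 and FOSL2 of the Fos family, JUN, JUNB and JUND of the Jun family, the zinc-finger factors EGR1 and KLF6, and the immediate early response genes IER2 and IER3. They were chosen by name, with earlier results of these data known, as were the gene lists further below. They make up 10 of the 58302 genes in the deposited table. All 10 passed the filter on low counts, so they are also 10 of the 14133 genes with enough counts to test. The OE-WT group stably carried wild-type TRMT6 and TRMT61A from lentiviral vectors and the CTRL group carried the empty vector, so that both groups had been transduced. The labels list 8 samples, which are 4 libraries sequenced on 2 lanes each, and the table has 1 column per library, giving 2 libraries per group. The promoter that drives the transgenes, and whether the lines were clones or pools, are not given in the sources used here. Cells of both groups were washed in cold buffer containing cycloheximide before lysis, and poly(A) RNA was sequenced. Any effect of this wash on the levels of these transcripts was not tested. The question was whether the transcripts of these genes differed between the groups.

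Immediate early genes are transcribed within minutes of a growth factor, stress or adhesion signal from promoters already occupied by their regulators, and need no new protein for this first response. Fos proteins pair with Jun proteins, and Jun proteins also pair with each other, to form AP-1, a dimer of leucine-zipper proteins that binds DNA at the site TGACTCA. Many of these transcripts are destroyed quickly through AU-rich elements in their 3′ untranslated regions, so their levels follow recent transcription closely, and in colorectal epithelium AP-1 is a known output of the RAS and MAP kinase pathway.

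The promoter sequences of FOS, JUN and EGR1 are shown because FOS and JUN were the genes of the 10 whose transcripts differed between the groups, while EGR1 is a textbook target of the same upstream signals whose transcript did not pass the test. Each runs from 250 bases before the transcription start to 50 after it, is written in the direction of transcription and comes from RefSeq on GRCh38.p14. In FOS (chr14:75278578-75278877, plus strand) the capitals mark TGACGTTT, a site for cAMP-responsive factors, and the TATA box TATAAA. In JUN (chr1:58783998-58784297, minus strand) they mark TGACATCA, a site for Jun and ATF dimers. In EGR1 (chr5:138465229-138465528, plus strand) they mark 2 CArG boxes, the sites for serum response factor.
FOS promoter: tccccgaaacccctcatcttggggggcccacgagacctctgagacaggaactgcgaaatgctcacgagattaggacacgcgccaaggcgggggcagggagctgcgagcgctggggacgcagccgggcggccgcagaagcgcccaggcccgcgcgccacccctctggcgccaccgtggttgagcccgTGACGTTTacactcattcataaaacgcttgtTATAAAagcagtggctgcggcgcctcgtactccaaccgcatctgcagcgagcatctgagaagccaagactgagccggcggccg
JUN promoter: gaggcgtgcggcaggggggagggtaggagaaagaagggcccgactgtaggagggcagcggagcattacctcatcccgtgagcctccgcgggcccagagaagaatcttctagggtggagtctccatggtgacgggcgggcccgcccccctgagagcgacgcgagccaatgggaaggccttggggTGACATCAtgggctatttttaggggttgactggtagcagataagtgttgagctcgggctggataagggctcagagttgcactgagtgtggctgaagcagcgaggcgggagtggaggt
EGR1 promoter: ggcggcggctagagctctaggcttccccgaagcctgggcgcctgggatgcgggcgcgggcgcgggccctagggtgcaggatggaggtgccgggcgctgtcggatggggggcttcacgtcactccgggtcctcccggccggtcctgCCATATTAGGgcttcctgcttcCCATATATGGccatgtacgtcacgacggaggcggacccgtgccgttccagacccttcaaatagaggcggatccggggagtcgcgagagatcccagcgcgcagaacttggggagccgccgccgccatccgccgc

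A set of 6 motifs was searched for on both strands in these windows, which were at hand for 8 of the 10 genes, FOSL1 and IER3 being the exceptions. TGACGTTT was found in FOS, at positions -64 to -57 from the transcription start, and in 0.487% of the 35116 RefSeq promoters of this length. TGACATCA was found in JUN, at positions -67 to -60, and in KLF6, at positions -172 to -165, and was held by 2.61% of all promoters. The FOS and JUN promoters, whose transcripts were both lower in OE-WT, held different motifs of the 6, and KLF6 shared its motif with JUN. TGACGTTT, TGACATCA and TGACGTCA were searched as separate exact strings, so near variants counted as different motifs. Whether FOS and JUN share a regulator was not tested. TGACTCA, the AP-1 site, was found only in FOSL2 of these 8 windows (4.95% of promoters), 4 to 10 bases after the transcription start. TGACGTCA was found only in JUND (1.85%), and TATAAA in FOS and JUNB (11.5%). CArG boxes were found in EGR1, at positions -105 to -96 and -83 to -74, against 1.29% of promoters. None of the 6 motifs was found in IER2. When the windows were lengthened to 500 bases before the start, a CArG box was also found in FOS, at positions -314 to -305, the number in EGR1 became 5, and 2.56% of 35112 such windows held one. The FOS site is the serum response element through which growth factors act, and it is printed with its CArG box in capitals (chr14:75278504-75278533, GRCh38, plus strand).
FOS CArG box: cacaggatgtCCATATTAGGacatctgcgt

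The 3′ untranslated regions of the canonical GENCODE 44 transcripts also differed among the genes. The pentamer ATTTA, the core of an AU-rich element, was counted 5 times in the 806 bases of FOS, 6 times in the 737 bases of IER3 and 3 times in the 1284 bases of JUN. It was found once in EGR1, JUND and FOSL1 each, 2 times in JUNB, 6 times in KLF6, 9 times in FOSL2 and 0 times in IER2. Per kilobase this gave 8.14 in IER3, 6.20 in FOS and 4.00 in JUNB, while the median over 19228 coding transcripts was 1.53. The nonamer TTATTTATT, a stronger form of the element that contains the pentamer, was found in FOS (site shown at chr14:75282061-75282087, GRCh38, plus strand) and FOSL2 (chr2:28416356-28416382, plus strand) and in 8.50% of all these transcripts. Both sites are in the last exon and are printed with the nonamer in capitals.
FOS AU-rich site: gtttttaatTTATTTATTaagatggat
FOSL2 AU-rich site: tttattttaTTATTTATTttaaatgtt

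The OE-WT libraries summed to 10460284 and 10327498 counts and the CTRL libraries to 12379671 and 12063433. Levels are given in CPM, the reads of a gene scaled to a common library size, and the 3 counts that a count of 0 allows corresponded to between 0.233 and 0.302 CPM, for counting error only. TRMT6 was 210.7 and 180.9 CPM in OE-WT against 52.6 and 55.4 CPM in CTRL, and TRMT61A was 137.5 and 130.4 CPM against 58.9 and 56.8 CPM, so the libraries matched their labels. Of the 9 colon epithelial markers, 8 passed the filter and CDX1 did not, and EPCAM was between 461.2 and 545.0 CPM. Among the 8, 2 rose and 3 fell, KRT20 by 1.52 on the log2 scale, beside 9.44% and 11.6% of all genes. The summed level of the 9 markers was 12110 and 12450 CPM in OE-WT and 11080 and 10870 CPM in CTRL. The 6 fibroblast markers summed to 3.22 and 2.46 CPM in OE-WT and 2.41 and 2.27 CPM in CTRL, with COL1A2, COL3A1 and DCN at 0 in every library. The 7 leukocyte and endothelial markers summed to 1.11 and 0.983 CPM in OE-WT and 2.57 and 1.46 CPM in CTRL, with CD3E and CDH5 at 0 in every library and VWF at 5, 6, 30 and 14 counts. The part of these differences in the results that follow was not tested. Among all 14133 genes, the quasi-likelihood test of edgeR, adjusted by the Benjamini-Hochberg method, called 9.44% higher and 11.6% lower in OE-WT at an adjusted p below 0.05. Without a scaling factor for composition, the share of higher genes among those called was 23.0% in place of 44.8%, and the median log2 fold change of all genes was -0.08 in place of 0.01. The sources differ on how many replicates each group had. The series' design text gives duplicate cultures, but the sample labels do not tie the 2 libraries of a group to separate cultures. If they share a culture, the p-values measure only the spread between these libraries, which may be technical.

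Of the 10 immediate early genes, 2 were called lower in OE-WT, FOS and JUN, and 0 were called higher. The 2 of 10 called lower and the 0 of 10 called higher stand beside a background of 11.6% and 9.44% of all genes. FOS fell by 1.01 on the log2 scale and JUN by 0.57, the other 8 genes lay between -0.19 and 0.16, and the median of the 10 was -0.06. At the threshold of an unadjusted p below 0.05 with a log2 fold change beyond 1 in either direction, FOS passed and the other 9 did not, while 3.15% of all genes did, 2.25% with a decrease and 0.899% with an increase. The CPM of the groups did not overlap in 5 genes, 4 of them (FOS, JUN, JUNB and EGR1) lower and 1 (IER3) higher in OE-WT, beside a background of 30.2% and 29.9% of all genes. In bulk RNA, a smaller share of cells that transcribe a gene and less transcript in every cell cannot be told apart.

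**Figure D1:**
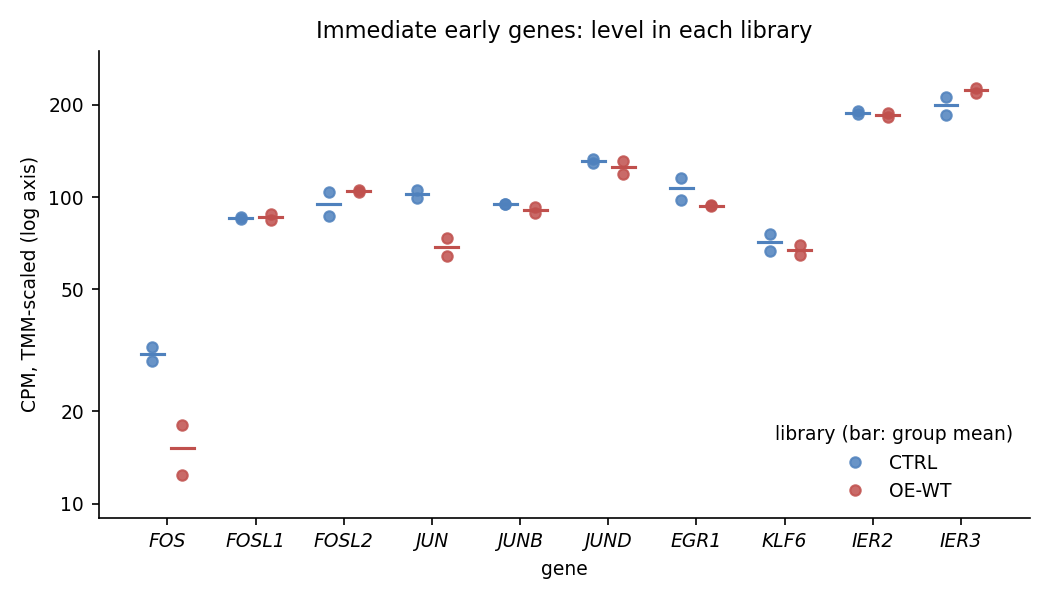
Level of each of the 10 genes in each library, in CPM on the vertical axis, which is logarithmic; points are the 2 CTRL libraries (blue) and the 2 OE-WT libraries (red), and bars are group means. FOS and JUN are the genes whose pairs of points stand farthest apart, and FOS is the lowest of the 10, between 12.4 and 32.4 CPM.

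FOS, the founding member of its family and the AP-1 subunit best known for brief induction, was 18.1 and 12.4 CPM in the OE-WT libraries and 29.2 and 32.4 CPM in the CTRL libraries. The counts behind these levels were 180 and 126 in OE-WT and 375 and 399 in CTRL. Both OE-WT libraries were below both CTRL libraries, and the 2 OE-WT libraries lay farther apart than the 2 CTRL libraries. The means were 15.3 ± 4.07 CPM in OE-WT and 30.8 ± 2.29 CPM in CTRL (SD, n = 2 libraries each), a level 2.02-fold higher in CTRL. The log2 fold change was -1.01 (SE 0.13, 95% interval -1.29 to -0.73) with an adjusted p of 1.4e-05 by edgeR's quasi-likelihood test, and 2.16% of the genes tested had a lower log2 fold change. It was -0.77 without the second OE-WT library and -1.31 without the first, and the test was passed in both cases. FOS (ENSG00000170345) lies at chr14:75278826-75282230 on the plus strand of GRCh38 and has 4 exons in its canonical transcript.

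FOSL1, which encodes the Fos family member FRA-1, was 83.9 and 88.2 CPM in OE-WT and 84.7 and 86.3 CPM in CTRL, so the CTRL values lay inside the OE-WT range. Its log2 fold change was 0.01 (SE 0.07, 95% interval -0.14 to 0.15, adjusted p = 0.940 by edgeR). FOSL2, which encodes FRA-2, was 103.6 and 105.2 CPM in OE-WT and 103.7 and 86.8 CPM in CTRL. The first CTRL library was within the OE-WT range and the second was below it, and the log2 fold change of 0.13 (SE 0.08, 95% interval -0.03 to 0.29) missed the threshold with an adjusted p of 0.250 in edgeR's test. FOSL1 (ENSG00000175592, chr11:65892049-65900573, minus strand) and FOSL2 (ENSG00000075426, chr2:28392448-28417317, plus strand) have 4 exons each, as FOS does. The intervals of both genes lay wholly above that of FOS.

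JUN, the first described partner of FOS, was 73.5 and 64.4 CPM in OE-WT and 105.4 and 99.0 CPM in CTRL, from counts of 730, 655, 1356 and 1220. Both OE-WT libraries were again below both CTRL libraries, and the gap between the groups was wider than the spread within either. The means were 69.0 ± 6.48 CPM and 102.2 ± 4.51 CPM (SD, n = 2 libraries each), a level 1.48-fold higher in CTRL. The log2 fold change was -0.57 (SE 0.08, 95% interval -0.73 to -0.41, adjusted p = 1.6e-05 by edgeR's quasi-likelihood test), and 7.80% of the genes tested had a lower one. JUN (ENSG00000177606) lies at chr1:58776845-58784048 on the minus strand and its canonical transcript is a single exon.

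JUNB and JUND, the other Jun proteins, which activate AP-1 sites less strongly than JUN in many settings, did not pass the test. JUNB was 88.6 and 92.6 CPM in OE-WT and 94.7 CPM in both CTRL libraries. Its OE-WT libraries were thus below its CTRL libraries by a small margin, with a log2 fold change of -0.06 (SE 0.07, 95% interval -0.21 to 0.08, adjusted p = 0.555 by edgeR). JUND was 119.1 and 131.2 CPM in OE-WT and 133.0 and 128.7 CPM in CTRL, with overlapping groups. Its log2 fold change was also -0.06 (SE 0.07, 95% interval -0.21 to 0.08, adjusted p = 0.552 by edgeR). When a trend on GC content was removed from each library, these values became 0.13 for JUNB and 0.18 for JUND, so neither direction held, and both remained short of the threshold. JUNB (ENSG00000171223, chr19:12791486-12793315, plus strand) and JUND (ENSG00000130522, chr19:18279694-18281622, minus strand) are single-exon genes like JUN.

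**Figure D2:**
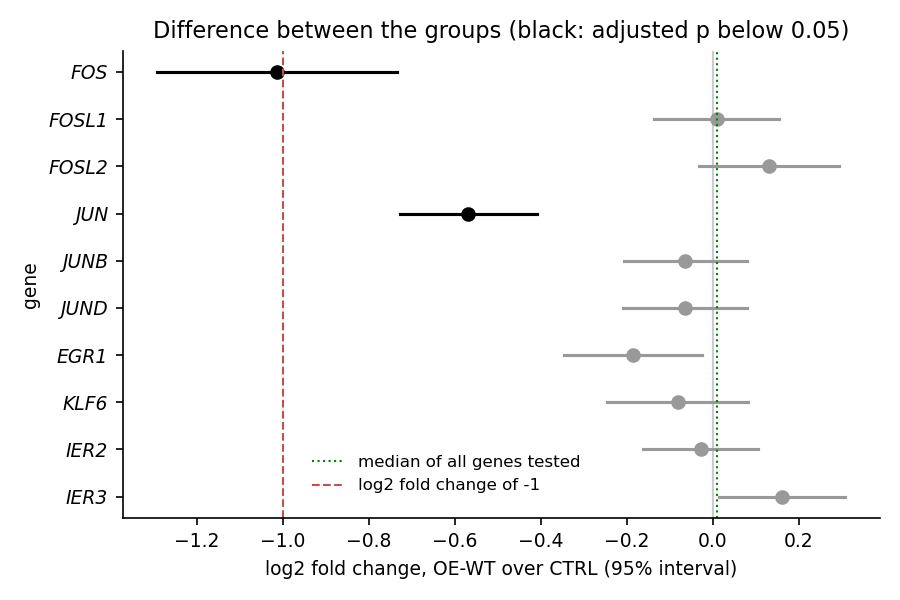
Log2 fold change of OE-WT over CTRL for each of the 10 genes (horizontal axis) with its 95% interval as a bar, in black where the adjusted p was below 0.05; lines mark 0, the median of all genes (dotted) and -1 (dashed). The bars of FOS and JUN end at -0.73 and -0.41, the bar of EGR1 ends at -0.03, and that of IER3 starts at 0.02.

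EGR1, a zinc-finger factor induced through CArG boxes, was 94.2 and 93.6 CPM in OE-WT and 115.5 and 98.0 CPM in CTRL. The groups did not overlap, and the 2 CTRL libraries differed from each other by more than the lower of them differed from OE-WT. The log2 fold change was -0.19 (SE 0.08, 95% interval -0.35 to -0.03), with an unadjusted p of 0.0251 and an adjusted p of 0.0926 in edgeR's test. It passed the threshold without the second CTRL library, where it was -0.30 with an adjusted p of 0.0084, and without a composition factor, where it was -0.28 with an adjusted p of 0.015; over the 13 alternatives its adjusted p ran from 0.0084 to 0.738. EGR1 (ENSG00000120738) lies at chr5:138465479-138469303 on the plus strand and has 2 exons. KLF6, a zinc-finger factor of the Krüppel-like family, was 70.0 and 64.7 CPM in OE-WT and 66.9 and 75.7 CPM in CTRL. Its groups overlapped, with a log2 fold change of -0.08 (SE 0.08, 95% interval -0.25 to 0.08, adjusted p = 0.503 by edgeR). KLF6 (ENSG00000067082) lies at chr10:3775996-3785281 on the minus strand and has 4 exons.

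IER2, a small nuclear protein of the immediate early class, was 182.4 and 187.6 CPM in OE-WT and 190.5 and 186.9 CPM in CTRL. Its lowest and highest libraries were closer together, relative to its level, than those of any other of the 10 genes, and its groups overlapped, with a log2 fold change of -0.03 (SE 0.06, 95% interval -0.16 to 0.10, adjusted p = 0.799 by edgeR). IER3, an early stress-response protein that acts on apoptosis and ERK signalling, was 227.2 and 218.3 CPM in OE-WT and 212.2 and 185.8 CPM in CTRL. Both OE-WT libraries were above both CTRL libraries, and the log2 fold change was 0.16 (SE 0.07, 95% interval 0.02 to 0.31), with an unadjusted p of 0.0317 and an adjusted p of 0.109 in edgeR's test. It passed the threshold without the first CTRL library, at 0.26 with an adjusted p of 0.028, and FOSL2 passed with it, at 0.27 with an adjusted p of 0.039. IER3 also passed, at 0.27 with an adjusted p of 0.0067, once the GC trend was removed. Over the 13 alternatives the adjusted p ran from 0.0067 to 0.627 for IER3 and from 0.039 to 0.954 for FOSL2. IER2 (ENSG00000160888, chr19:13150411-13154911, plus strand) and IER3 (ENSG00000137331, chr6:30743199-30744548, minus strand) have 2 exons each.

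Some of these genes share their place with a gene on the other strand, and the strand setting used for counting is not given in the sources used here, so that reads of such partners cannot be told apart. IER3 overlaps the antisense transcript IER3-AS1, which had 687 and 676 counts under OE-WT, against 810 and 732 under CTRL. IER2 overlaps the antisense transcript ENSG00000267598, with 1117 and 1187 counts under OE-WT, against 1530 and 1367 under CTRL. JUNB overlaps HOOK2, which had 326 and 367 counts under OE-WT, against 537 and 488 under CTRL. These partners had no adjusted p below 0.05, and GENCODE 44 lists no overlapping gene for FOS, JUN, EGR1, JUND, FOSL1 or KLF6. The partners of FOSL2 had at most 4 counts in a library.

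Levels of different genes were compared as CPM per kilobase of the canonical transcript, averaged over the 4 libraries. IER3 was the highest at 170.5, followed by IER2 at 88.6 and JUND at 66.4, and the libraries of each of these lay wholly above those of the next gene. JUNB (48.4 to 51.7) and FOSL1 (49.3 to 51.8) could not be ordered. EGR1 (29.8 to 36.8) and JUN (19.8 to 32.4) also overlapped. KLF6 (14.1 to 16.5), FOSL2 (12.9 to 15.7) and FOS (5.89 to 15.4) made up the lowest group, and in OE-WT both FOS values, 8.62 and 5.89, were below every value of KLF6 and FOSL2.

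On the same per-kilobase scale, the Fos family, with FOSB added to the 3 genes, summed to 75.2 and 75.6 in OE-WT and 83.1 and 82.1 in CTRL. FOSL1 gave the largest share of the sum in every library, 65.5% and 68.5% in OE-WT and 59.9% and 61.7% in CTRL. FOS gave 11.5% and 7.79% in OE-WT and 16.7% and 18.7% in CTRL. The FOS share was thus lower and the FOSL1 share higher in both OE-WT libraries than in either CTRL library. The level of FOSL1 itself overlapped, at 49.3 and 51.8 in OE-WT and 49.7 and 50.7 in CTRL. Its higher share therefore restates the lower sum of the family. The ratio of FOS to FOSL1 was 0.175 and 0.114 in OE-WT and 0.279 and 0.304 in CTRL. In the Jun family the sum was 132.7 and 138.4 in OE-WT and 153.0 and 148.9 in CTRL. JUND gave the largest share, between 44.8% and 49.2%, and JUN the smallest, 17.02% and 14.28% in OE-WT and 21.2% and 20.4% in CTRL. The ratio of JUN to JUND was 0.366 and 0.291 in OE-WT and 0.469 and 0.456 in CTRL, again without overlap. With 2 libraries per group, an exact two-sided permutation test of such a ratio cannot give a p below 0.333, so these ratios stand as descriptions.

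**Figure D3:**
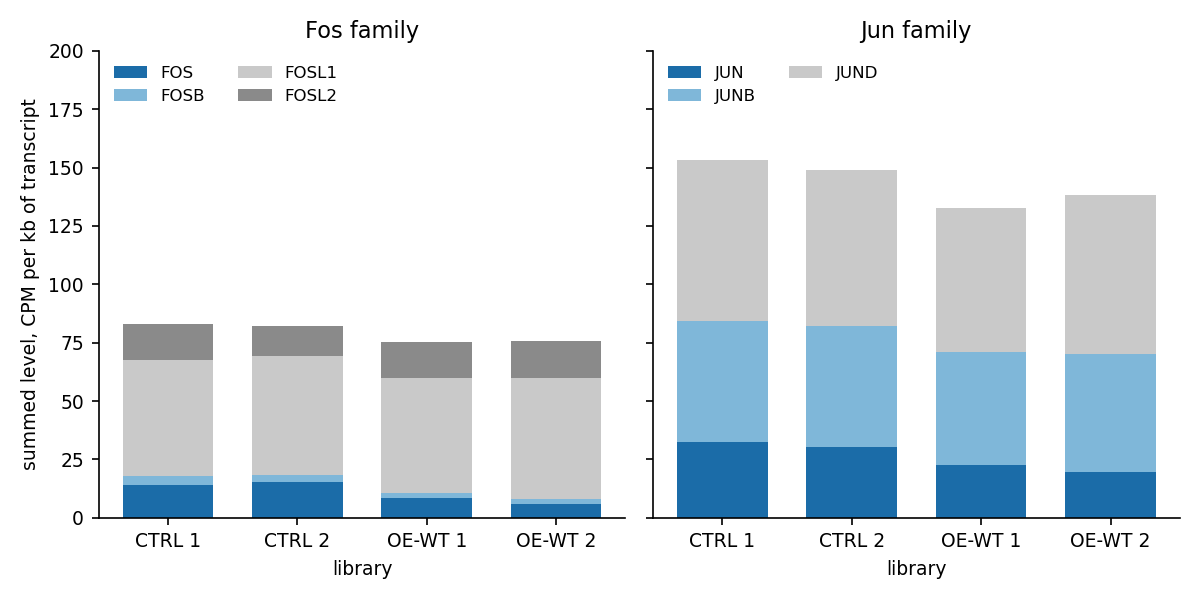
Summed level of the Fos family (left) and the Jun family (right) in each library, in CPM per kilobase of canonical transcript, with 1 stacked bar per library and 1 segment per gene. The FOS segment at the foot is 8.62 and 5.89 in OE-WT and 13.8 and 15.4 in CTRL, and the JUN segment is 22.6 and 19.8 in OE-WT and 32.4 and 30.4 in CTRL, while the JUND segments lie between 61.7 and 69.0.

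The other AP-1 subunits and dimer partners numbered 11, of which 9 had enough counts to test. Of these, 3 fell in OE-WT and 0 rose at an adjusted p below 0.05, beside 11.6% and 9.44% of all genes. The median log2 fold change of the 9 was -0.06 against 0.01 over all genes. JDP2, which binds AP-1 sites as a repressor, was 14.2 and 17.9 CPM in OE-WT and 27.9 and 29.1 CPM in CTRL, and its log2 fold change was -0.83 (SE 0.12, adjusted p = 3.7e-05 by edgeR). FOSB, the fourth Fos protein, was 7.15 and 8.45 CPM in OE-WT and 15.2 and 11.8 CPM in CTRL (log2 fold change -0.79, SE 0.17, adjusted p = 0.0020 by edgeR). MAFK, a small Maf protein, was 41.1 and 39.1 CPM in OE-WT and 50.9 and 50.1 CPM in CTRL (log2 fold change -0.33, SE 0.08, adjusted p = 0.0056 by edgeR). The members that fell thus included both an activating and a repressing partner, and the call of MAFK was lost in DESeq2 and after removal of the GC trend. JDP2 and FOSB kept their calls under all 13 alternatives run.

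Of 28 other immediate early genes, all tested, 9 fell (32.1%) and 3 rose (10.7%) in OE-WT, beside 11.6% and 9.44% of all genes. The median log2 fold change of the 28 was -0.20. The number that fell was 5 in DESeq2, 5 after removal of the GC trend and 5 without the first CTRL library, and the number that rose was 5 without the second OE-WT library. EGR4, a relative of EGR1, had the largest decrease, from 3.19 and 4.46 CPM in CTRL to 1.41 and 1.18 CPM in OE-WT (log2 fold change -1.55, SE 0.32, adjusted p = 0.0012 by edgeR), on 12 to 55 counts per library. SOCS3, a feedback inhibitor of cytokine signalling, was at 4 and 8 counts under OE-WT, against 19 and 21 under CTRL. Its call was lost in 5 of 12 alternatives, including DESeq2, which gave it no adjusted p. SGK1, a serum-induced kinase, was 17.4 and 16.0 CPM in OE-WT and 23.5 and 25.7 CPM in CTRL (log2 fold change -0.56, SE 0.12, adjusted p = 0.0015 by edgeR). CCN1, a secreted matricellular protein, was 447.3 and 475.0 CPM in OE-WT and 703.5 and 646.8 CPM in CTRL (log2 fold change -0.55, SE 0.07, adjusted p = 5.5e-06 by edgeR). NFKBIZ, a nuclear co-regulator of NF-κB, moved the other way, with 22.6 and 21.3 CPM in OE-WT and 14.1 and 14.0 CPM in CTRL (log2 fold change 0.64, SE 0.12, adjusted p = 6.3e-04 by edgeR). Genes that fell thus stood beside genes that rose and 16 that did not pass the test.

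Upstream of these genes, 20 kinases and transcription factors of the MAP kinase, serum response factor and CREB routes were all tested. Among the 20, 1 rose and 1 fell, beside 9.44% and 11.6% of all genes, and the median log2 fold change was 0.03. Over the 13 alternatives the number that rose ran from 0 to 3, and 4 fell without a composition factor. MAPKAPK2, a kinase downstream of p38, was 60.2 and 62.8 CPM in OE-WT and 86.0 and 78.9 CPM in CTRL (log2 fold change -0.42, SE 0.07, adjusted p = 3.3e-04 by edgeR). The 18 that did not pass the test included SRF, ELK1 and CREB1, and transcript levels do not measure kinase activity. The EGR1 corepressors NAB1 and NAB2 did not pass it either. Among the transcripts of 6 proteins that bind AU-rich elements, 3 rose and 0 fell, beside 9.44% and 11.6% of all genes. HNRNPD, which speeds decay, KHSRP, which also promotes it, and ELAVL1, which stabilises its targets, had transcripts that rose by 0.28, 0.24 and 0.21 on the log2 scale, with adjusted p-values of 0.022, 0.0091 and 0.026 in edgeR's test. The number called higher was 1 in DESeq2, 1 with every gene that had at least 1 count and 0 without a composition factor or without the first CTRL library.

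Of 20 genes known as AP-1 targets, 11 had enough counts to test. Among the 11, 5 fell and 3 rose, beside 11.6% and 9.44% of all genes, and the median log2 fold change was -0.05. CD44, a hyaluronan receptor, was 75.7 and 90.6 CPM in OE-WT and 155.5 and 135.2 CPM in CTRL (log2 fold change -0.81, SE 0.08, adjusted p = 6.8e-07 by edgeR). PLAUR, the urokinase receptor, was 78.5 and 89.3 CPM in OE-WT and 141.4 and 132.5 CPM in CTRL (log2 fold change -0.71, SE 0.07, adjusted p = 7.3e-07 by edgeR). Its ligand PLAU fell with it, from 31.1 and 26.6 CPM in CTRL to 15.2 and 17.7 CPM in OE-WT (log2 fold change -0.81, SE 0.12, adjusted p = 4.6e-05 by edgeR). PTGS2, the inducible prostaglandin synthase, rose, with 21.5 and 19.0 CPM in OE-WT and 9.48 and 9.25 CPM in CTRL (log2 fold change 1.11, SE 0.14, adjusted p = 6.3e-06 by edgeR). The urokinase receptor and its ligand fell while PTGS2 rose, and CD44, PLAUR, PLAU and PTGS2 kept their calls under all 13 alternatives. TIMP1 was also among the genes that fell, and CXCL8 and CCND1 were the others that rose. Without a composition factor the number that rose was 2, and the number that fell was still 5. The 9 targets below the filter included the matrix metalloproteinases MMP1, MMP3, MMP7, MMP9, MMP10 and MMP13.

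Heat shock genes, which respond to stress through another factor, were included beside the AP-1 genes, and 3 of 6 fell and 1 rose, beside 11.6% and 9.44% of all genes. The number that fell was 1 in DESeq2, 1 without the second OE-WT library and 1 without the second CTRL library, the number that rose was 2 after removal of the GC trend, and HSPA1A and HSPH1 each lost their call in 5 of 13 alternatives. HSPA1B, an inducible HSP70 gene, was 35.1 and 31.5 CPM in OE-WT and 55.8 and 56.2 CPM in CTRL (log2 fold change -0.75, SE 0.09, adjusted p = 2.0e-06 by edgeR), while HSP90AA1 was 774.5 and 728.9 CPM in OE-WT and 516.7 and 586.2 CPM in CTRL (log2 fold change 0.45, SE 0.07, adjusted p = 1.0e-04 by edgeR). DESeq2 gave no adjusted p for HSPA1A, and this was counted as a lost call. HSPA1A and HSPA1B are near-identical copies, so how their reads were divided is uncertain. The part of a stress response in the levels of FOS and JUN was not tested.

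The calls of FOS and JUN were made again under 13 alternatives of scaling, test, filter, pairing, GC content and library, and held in all of them. The log2 fold change of FOS ran from -1.11 to -0.90 under the 9 that kept all libraries and from -1.31 to -0.77 when 1 library was left out. That of JUN ran from -0.66 to -0.47 and from -0.66 to -0.48. The threshold of a log2 fold change beyond 1 was missed by FOS after removal of the GC trend, at -0.90, without the second OE-WT library, at -0.77, and without the second CTRL library, at -0.93.

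**Figure D4:**
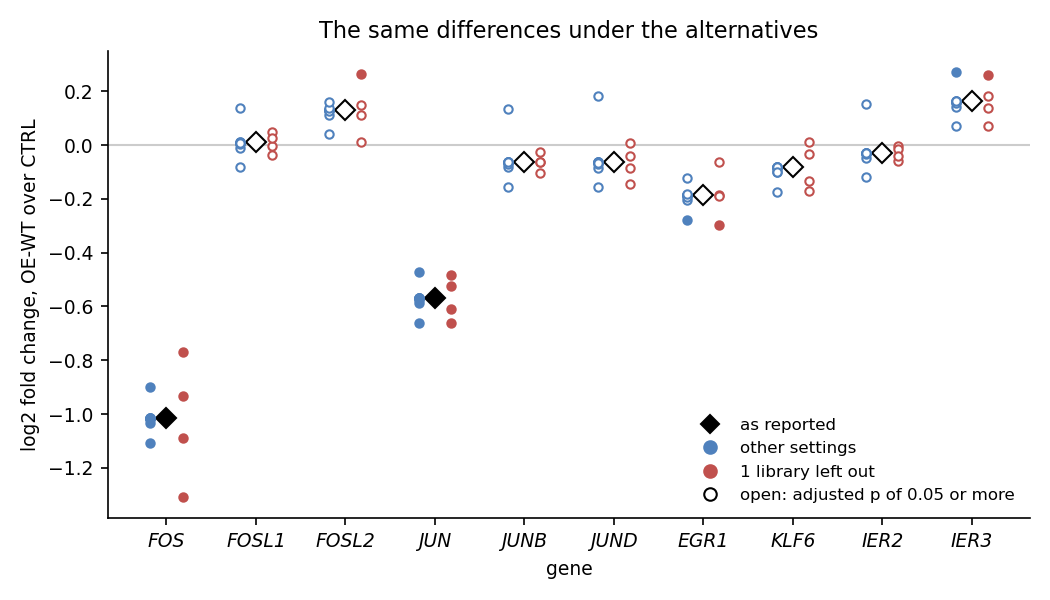
Log2 fold change of OE-WT over CTRL (vertical axis) for the 10 genes, as reported (diamonds), under the 9 other settings (blue) and with 1 library left out (red), open where the adjusted p was 0.05 or more. FOS stays between -1.31 and -0.77 and JUN between -0.66 and -0.47, while the points of FOSL1 lie on both sides of 0.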

How the data were processed

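Poly(A) RNA of DLD1 cells was sequenced with a strand-specific kit per the labels, whereas the study's methods describe removal of ribosomal RNA. The methods also state 3 biological replicates per group and the series' design text duplicate cultures, while the labels and the table hold 2 libraries per group. The values the authors deposited are raw read counts per Ensembl gene, whole numbers, for 4 libraries with their lanes already merged. Reads had been trimmed, aligned to GRCh38 with HISAT2 and counted per gene. The counting tool is HTSeq in the study's methods, while the submitters' processing notes list featureCounts 2.0.0 beside HISAT2 2.2.1 and DESeq2 1.34.0. The annotation release is not given in the sources used here. Reads from a gene and an overlapping partner may be set aside or pooled at this step, which bears on IER2, IER3 and JUNB.

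Here, symbols and coordinates came from GENCODE 44 on GRCh38, which matched 57532 of 58302 identifiers. Genes were filtered with filterByExpr (minimum count 10), scaled with TMM and tested with edgeR 4.0.16 in R 4.3.3 by the quasi-likelihood test over 4 libraries, with Benjamini-Hochberg adjustment over 14133 genes. A gene was called at an adjusted p below 0.05, and separately at an unadjusted p below 0.05 with an absolute log2 fold change above 1. CPM use TMM-scaled library sizes. Standard errors were derived from the F statistic, as the ratio of the log2 fold change to its square root, and intervals are at 95%. Totals ran from 10327498 to 12379671 counts per library.

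The 10 genes and the lists (other AP-1 subunits and dimer partners, other immediate early genes, upstream kinases and transcription factors, EGR1 corepressors, AU-rich element binding proteins, AP-1 target genes, heat shock genes and 3 marker lists) were chosen with earlier results of these data known. Beside the 10 genes, up to 5 called genes with the largest absolute log2 fold change per list, and the overexpressed genes, were described with values, except that some are not reported here; overlapping genes, marker genes and other genes of the lists were named after their values were seen. Alternatives were RLE factors, no composition factor, DESeq2 1.42.0, the exact test and the likelihood ratio test in edgeR, 2 other filters, a replicate block, removal of a GC trend (lowess, span 0.3) and leaving out each library. They were extended to the other lists after the data were seen. The fits were tested on simulated counts. Figures were drawn with matplotlib 3.10.9 in Python 3.11.15. Ribosome profiling and tRNA sequencing were not analysed here.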

Additional observations from a re-analysis of the deposited data

How the results depend on the processing

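Of 130 values of the 10 genes under 13 alternatives, 116 kept their direction and their side of the threshold, and FOS and JUN kept both throughout. The number of genes called was 2976, against 1373 in DESeq2 and 1903 to 2852 with a library left out, where the lone library of a group is assumed to vary like the other group. The genes past an unadjusted p below 0.05 and a log2 fold change beyond 1 numbered 445, against 288 in DESeq2, 738 with every gene that had at least 1 count and 216 where each library had 10 counts or more. Of the 10 genes, the number called higher was 0, 1 after removal of the GC trend (IER3) and 0 to 2 with a library left out. The number called lower was 2, 3 without a composition factor (EGR1) and 2 to 3 with a library left out. The number past the fold threshold was 1, 0 after removal of the GC trend and 0 to 1 with a library left out. The direction of FOSL1 turned without a composition factor (-0.081) and with every gene that had at least 1 count (-0.0097), and ran from -0.036 to 0.050 with a library left out. Removal of the GC trend turned JUNB (0.13), JUND (0.18) and IER2 (0.15). With a library left out, JUND ran from -0.15 to 0.0085 and KLF6 from -0.17 to 0.010. The cause of these changes was not tested. Same-numbered libraries showed no shared deviation from their group means (correlation -0.07), which cannot tell whether they were prepared together. With a replicate block the number of genes called was 2658, FOS was at -1.02 and JUN at -0.57, and the calls among the 10 genes were the same. The precision is limited by 2 libraries per group and, for EGR4, SOCS3 and HSPA1A, by counts of 55 or fewer in each library.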
